A study of Mus musculus with 12 samples.

Results

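The synaptotagmin-like proteins Sytl1 to Sytl5, the GTPases Rab27a and Rab27b and the Rab27-binding linker Myrip were followed in mouse hypothalamus. Every probe of the normalized table that carried one of these 8 gene symbols was taken, which gave 17 of 56605 probes and 8 of 27308 symbols. Hypothalamus RNA was hybridized to single-color Agilent arrays, with 3 arrays in each of 4 groups of male mice, whose labels give an age of 6 to 7 weeks. That is the age at which training began, and the labels do not give the age at sampling. WT mice were sedentary wild-type littermates on C57BL/6, and KO mice were sedentary and homozygous for a 20 bp deletion in Asmt, the gene of the last enzyme of melatonin synthesis. Exercised WT mice (the wild-type exercise group) and KE mice (the knockout exercise group) were trained in swimming. The knockout was made with Cas9 in zygotes, and its founders had been crossed back to their wild-type littermates for 3 generations. The deletion was therefore carried by every tissue. The paper states that C57BL/6J mice are born with lower Asmt activity, and it found no significant effect of the knockout on serum melatonin. It did report higher serum melatonin with swimming and a significant interaction of knockout and swimming on that level. The labels number the samples of a group as replicates but do not state that each came from a separate animal, so the p-values measure the spread between these samples. The family was chosen by the measured values of a Sytl2 probe. That probe stood in the study's lists of KO compared with WT and of KE compared with KO. Sytl2 values in those comparisons, in their interaction and in the other comparisons of the same arrays are therefore given as description, with no test. The paper also measured Sytl2 by qRT-PCR, and Sytl2 is not among the genes it reports as verified.

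Rab27a and Rab27b are small GTPases that, when bound to GTP, sit on secretory vesicles, melanosomes and lytic granules and recruit effector proteins. The synaptotagmin-like proteins bind Rab27 through their amino-terminal domain and bind membranes through their C2 domains, and so tether vesicles to the plasma membrane. Myrip belongs to another effector class, which links Rab27-bearing vesicles to myosin motors and actin. In brain and endocrine tissue, these proteins are known for docking of dense-core vesicles that carry peptides and hormones.

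The results turn on a few probes, each of 60 bases. Sytl2 probe 2 (A_65_P11034, chr7:97533613-97533672, build mm9) gave the largest differences and is annotated to a non-coding transcript variant. Sytl2 probe 3 (A_55_P2734392, chr7:97529542-97529601) lies 4011 bases before it and is annotated to a predicted mRNA. Sytl2 probe 1 (A_51_P290921, chr7:97558507-97558566) lies 24834 bases beyond probe 2 and is annotated to a protein-coding variant. The Sytl5 probe (A_52_P436524, chrX:9528805-9533538) spans 4734 bases of genome with its 60 bases and thus crosses a splice junction. Probes of a gene are numbered by their mean signal. The probe sequences of the array design, 5′ to 3′, are given for the Sytl2 probe on which the family was chosen, for its undetected neighbor and for the Sytl5 probe, which had the smallest p-value in the comparison of the swimming groups.
Sytl2 probe 2: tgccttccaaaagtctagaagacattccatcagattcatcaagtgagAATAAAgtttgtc
Sytl2 probe 3: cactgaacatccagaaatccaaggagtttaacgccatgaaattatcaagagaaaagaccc
Sytl5: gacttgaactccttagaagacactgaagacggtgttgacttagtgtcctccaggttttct
Capitals mark the hexamer AATAAA, which is the common polyadenylation signal, searched on the printed strand only. It is held by 5 of the 17 member probes and by 9.77% of all probes on the array.

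The arrays lay on 2 slides. KO replicate 3 and all arrays of swimming mice were on slide 2, and the remaining KO arrays shared slide 1 with the 3 WT arrays. The first principal component, with 47.3% of the variance, put KO replicate 3 at 40.0 beside the exercised WT and KE arrays (19.3 to 34.6), whereas the slide 1 arrays lay between -47.5 and -29.5. WT and exercised WT are each confined to 1 slide, so their slide and group cannot be told apart except through the KO arrays. Results are also given with the slide as a block. The slide term of that fit equals KO replicate 3 minus the mean of the other KO arrays. It thus rests on 1 array of slide 2, and a slide effect cannot be told apart from a difference of that sample. Between 61.6% and 67.9% of the spots of an array were well above background, and none was saturated (0 on every array). The probe for Asmt was well above background on 0 of 12 arrays, so the array did not check the genotype. Of 11 hypothalamus markers, 10 were detected on all 12 arrays and Sim1 on 9, whereas of 7 anterior pituitary markers Tshb and Lhb were detected on all 12 arrays, Fshb and Cga on 5, Prl on 3 and Gh and Pou1f1 on 0, and the summed log2 level reached at most 8.14 in WT and 11.69 in KO, compared with 10.94 in the exercised WT mice and 11.09 in KE. The part of pituitary tissue in the values of the members was not tested.

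Each member gene had a tested probe, meaning one detected (well above background) on every array of some group. This held for 11 of the 17 member probes and for 62.2% of all probes. A total of 8 member probes, covering all member genes except Sytl3, were detected on all 12 arrays, 6 on some arrays and 3 on none. The probes of Sytl1, Sytl5 and Myrip, both Rab27b probes 1 and 2, and probe 1 of Sytl2, Sytl4 and Rab27a belonged to the first class. Sytl2 probe 3 and Sytl3 probes 3 and 4 were never detected. Sytl3, Sytl4 and Rab27a thus each rested on a single tested probe.

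**Figure D1:**
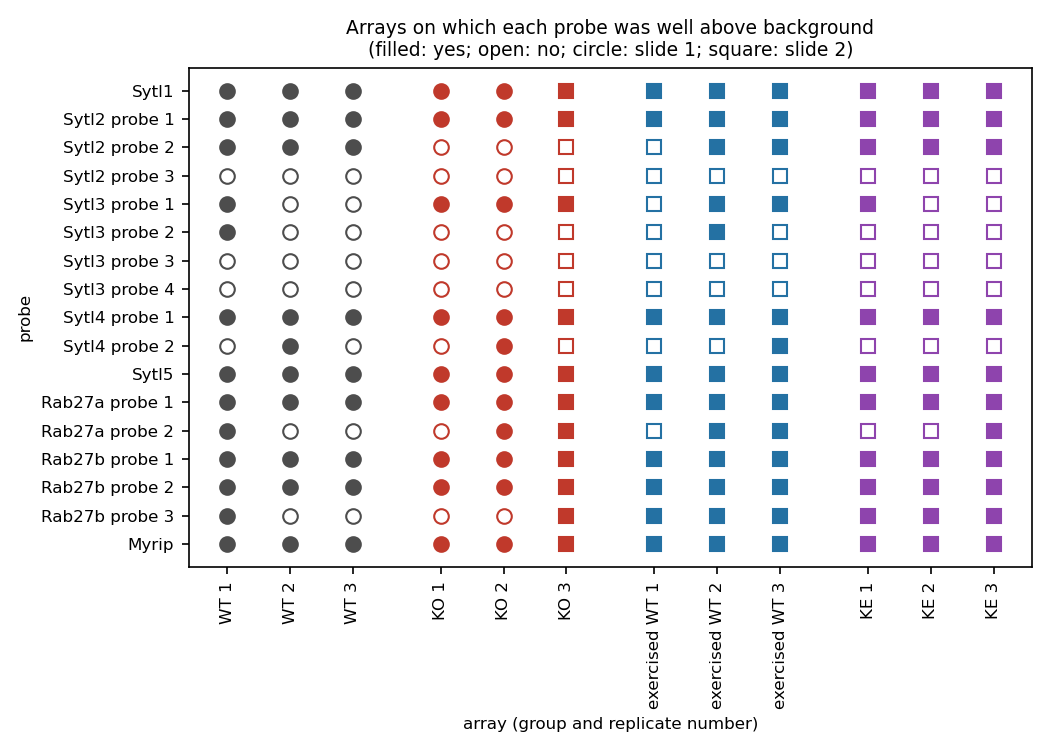
Detection of the 17 member probes (rows) on each of the 12 arrays (columns, by group and replicate number); filled symbols mark probes well above background, circles slide 1 and squares slide 2. Sytl2 probe 2 is open on the 3 KO arrays and on 1 exercised WT array and filled on all WT and KE arrays.

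Among the 8 probes detected on every array, the range over the 12 arrays had a median of 0.43 on the log2 scale, compared with 0.48 over the 32095 such probes of all genes. It was narrowest for Rab27b probe 1 (0.19) and widest for Sytl1 (1.20). Of the tested probes not detected everywhere, the ranges were 2.28 for Sytl2 probe 2, 2.03 for Rab27b probe 3 and 1.36 for Sytl3 probe 1.

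**Figure D2:**
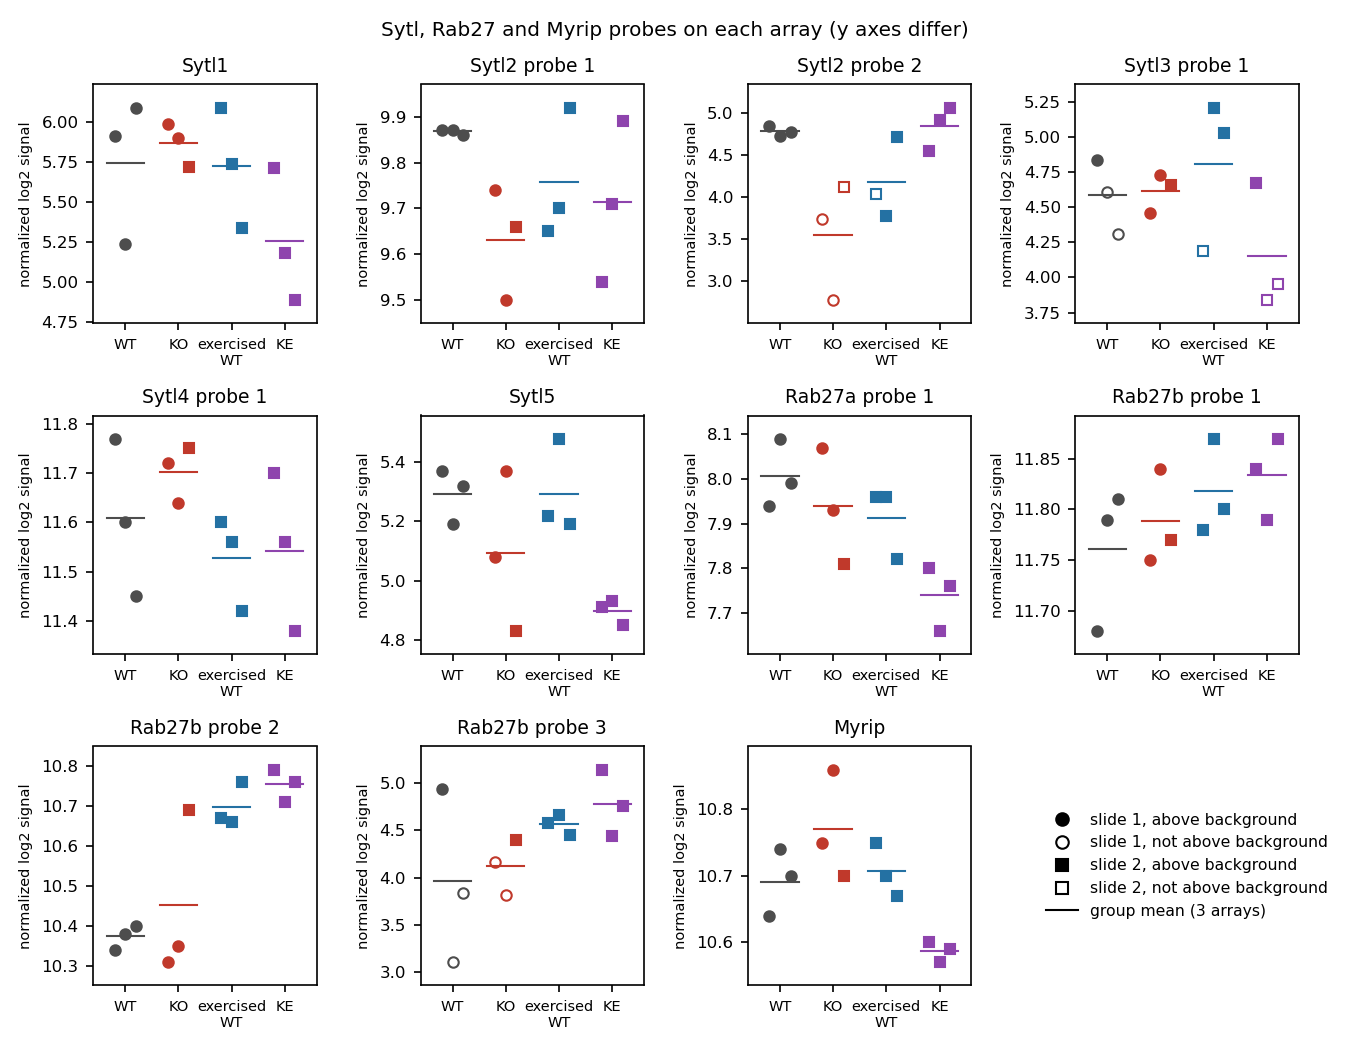
Normalized log2 signal (y axes, own scale in each panel) of the 11 tested member probes on each array, by group (x axes); lines are group means of 3 arrays, filled symbols mark detection, circles slide 1 and squares slide 2. The KO arrays of Sytl2 probe 2 lie between 2.78 and 4.12, below all WT arrays, and Rab27b probe 2 divides by slide.

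The study screened probes by a 2-fold difference or more and a p of at most 0.05 by the methods' t-test. Here the same limits were set with the p of limma before adjustment, over 35230 tested probes, and Benjamini-Hochberg adjusted p-values were taken over all of them. The counts that follow are over the 9 tested probes of genes other than Sytl2, since Sytl2 values chose the family. Among these 9, Rab27b probe 3 passed the detection filter through the swimming groups alone and Sytl3 probe 1 through KO alone. In KO compared with WT, 0 of 9 lay past both limits (0.224% of all tested probes did) and 0 of 9 were apart without overlap (background 8.58%). Past both limits were also 0 of 9 in KE compared with KO (background 1.21%), in exercised WT compared with WT (2.19%), in KE compared with exercised WT (0.253%) and in the interaction (0.593%). An adjusted p under 0.05 was reached by 0 of 9 in each of these 4 comparisons and in the interaction. Over all probes that share was 0% in 3 of the comparisons and in the interaction, and 0.0199% in KE compared with KO. At an unadjusted p of at most 0.05 the counts were 0 of 9 in KO compared with WT (background 5.48%), 1 in exercised WT compared with WT (26%), 4 in KE compared with KO (21.1%) and 2 in KE compared with exercised WT (6.66%). By the methods' t-test with adjustment, the counts stayed at 0 except for 1 in exercised WT compared with WT, Rab27b probe 2 (background 4.64%).

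**Figure D3:**
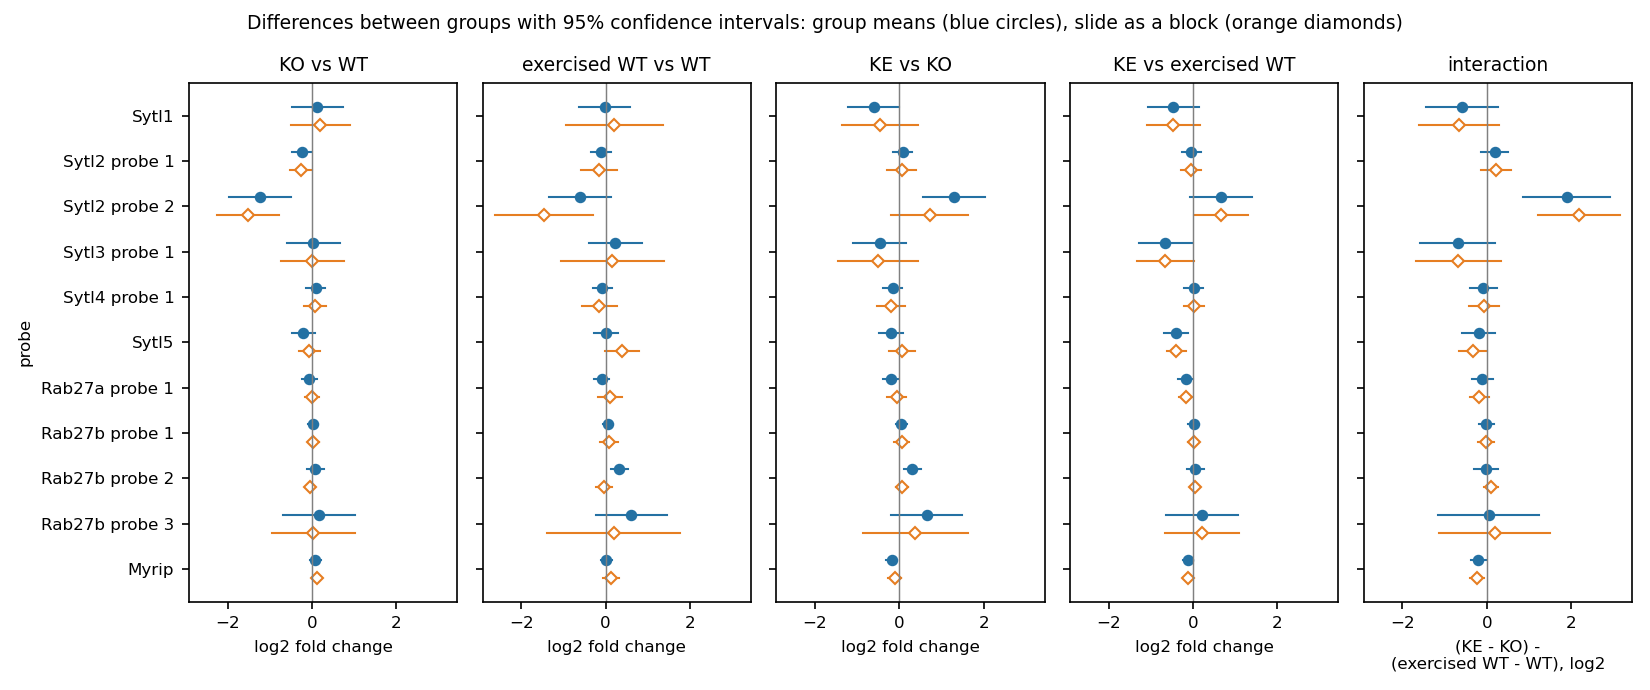
Log2 fold changes (x axes) of the 11 tested member probes (y axis) with 95% confidence intervals in 4 comparisons and their interaction; blue circles are the fit of group means and orange diamonds the fit with the slide as a block. The Sytl2 intervals are a description. Sytl2 probe 2 lies at -1.23 in KO vs WT, a value that chose the family. Rab27b probe 2 in exercised WT vs WT moves from 0.32 to -0.04 with the slide block.

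Rab27a, the GTPase of melanosomes and lytic granules, was measured by probe 1 (A_52_P426740, chr9:72944668-72944727). Its log2 signals were 7.94, 8.09 and 7.99 in WT, 8.07, 7.93 and 7.81 in KO, 7.96, 7.96 and 7.82 in exercised WT and 7.80, 7.66 and 7.76 in KE. The KE arrays lay below all others, and the remaining groups overlapped. The order of the group means was WT, KO, exercised WT and KE, and only the step from exercised WT to KE parted groups without overlap. KE lay lower than exercised WT by a log2 difference of -0.17 ± 0.08 (SE, limma adjusted p = 0.755). Against KO it was -0.20 ± 0.08 (adjusted p = 0.205), and it was -0.07 within slide 2, where KO replicate 3 is the only KO array. The 95% interval of KO compared with WT ran from -0.24 to 0.11. Rab27a probe 2 lies 903 bases before probe 1, was detected on 6 of 12 arrays spread over all groups, and was not tested.

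Rab27b, the close relative of Rab27a in neurons, platelets and endocrine cells, had 3 tested probes on chromosome 18. Probe 1 (A_55_P2010121) ranged from 11.68 to 11.87, and every comparison of its groups had an estimate between 0.02 and 0.06 on the log2 scale. Its 95% interval in KO compared with WT was -0.10 to 0.15 and in KE compared with exercised WT -0.11 to 0.14. The groups overlapped throughout. Probe 2 (A_52_P120719), 5276 bases away, gave 10.34, 10.38 and 10.40 in WT, 10.31, 10.35 and 10.69 in KO, 10.67, 10.66 and 10.76 in exercised WT and 10.79, 10.71 and 10.76 in KE. The high KO value was replicate 3, and the 7 arrays of slide 2 lay above the 5 of slide 1 with no overlap, which was so for this member probe only and for 21.8% of all tested probes. Rab27b probe 2 was higher by 0.32 ± 0.09 in exercised WT than in WT (SE, limma adjusted p = 0.0962) and by 0.30 ± 0.09 in KE than in KO (adjusted p = 0.160). With the slide as a block these differences were -0.04 ± 0.08 and 0.06 ± 0.07, and the slide term was 0.36 ± 0.07 (adjusted p = 0.0112). That term, which rests on KO replicate 3, was past an adjusted p of 0.05 in 13.3% of all tested probes and in no other member probe. Probe 3 (A_55_P2714065), 153640 bases from probe 2, ranged from 3.11 to 5.14. This probe was detected on all exercised WT and KE arrays but on 1 of 3 WT and 1 of 3 KO arrays. Since only the swimming groups, where it was high, carried it past the detection filter, its differences are given without a test. Exercised WT lay 0.60 above WT, and 1.09 without WT replicate 1, the WT array on which it was detected.

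Sytl1, known for granule secretion in exocrine and blood cells, was measured by A_55_P2143693 (chr4:132809016-132809075). Its signals were 5.91, 5.24 and 6.09 in WT, 5.99, 5.90 and 5.72 in KO, 6.09, 5.74 and 5.34 in exercised WT and 5.71, 5.18 and 4.89 in KE. The KE arrays lay below all KO arrays and overlapped WT and exercised WT. The difference of KE from KO was -0.61 ± 0.27 (SE, limma adjusted p = 0.234) and -0.46 ± 0.40 with the slide as a block. Against exercised WT it was -0.47 ± 0.27 (adjusted p = 0.797). The WT, KO and exercised WT groups overlapped one another.

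Sytl2 is an effector that anchors Rab27-bearing granules and melanosomes at the cell periphery. Probe 2 gave 4.84, 4.72 and 4.77 in WT, 3.74, 2.78 and 4.12 in KO, 4.04, 3.77 and 4.71 in exercised WT and 4.54, 4.91 and 5.06 in KE. Every KO array lay below every WT array and every KE array, and none of the 3 KO arrays was well above background. The probe passed the detection filter through WT and KE alone, where it was high. The highest exercised WT array, at 4.71, lay just under the lowest WT array, at 4.72. The group means were 4.84 ± 0.27 in KE, 4.78 ± 0.06 in WT, 4.17 ± 0.49 in exercised WT and 3.54 ± 0.69 in KO (SD, n = 3), of which KE and WT overlapped, as did exercised WT with KO and exercised WT with KE. The fold over KO was therefore also taken with a floor. Each KO array was set to the higher of its own value and the lowest value called well above background on that array. On that footing the WT mean exceeded the KO mean 1.44-fold, and the KE mean exceeded it 1.50-fold. These folds hold for the deposited values and carry no sampling error. They are not given as minima, since log2 differences of so dim a probe depend on the background correction (next paragraph).

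The fitted log2 differences of Sytl2 probe 2 were -1.23 ± 0.33 for KO compared with WT and 1.29 ± 0.33 for KE compared with KO (SE). These alone of the member values lay inside the screening fold, and the nearest outside it were -0.24 for Sytl2 probe 1 in the former and 0.65 for Rab27b probe 3 in the latter. Without KO replicate 2, the lowest array, they were -0.85 and 0.91, under the 2-fold limit. With normexp background correction they were -0.26 and 0.27. That correction adds an offset of 50 to every signal, which by itself shrinks the log2 differences of dim probes. Over all tested probes the share past both limits in KO compared with WT was 0.00568% with it and 0.224% in the main fit. With the slide as a block KO compared with WT was -1.52 ± 0.32, and KE compared with KO was 0.72 ± 0.41. In exercised WT compared with WT, whose WT arrays also entered the choice of the family, the difference was -0.60 ± 0.33, with 2 of 3 exercised WT arrays detected. It was -1.46 ± 0.52 with the slide as a block. KE and exercised WT lie within slide 2, where their difference was 0.67 ± 0.33 and their arrays overlapped.

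The other detected Sytl2 probe, probe 1, had smaller differences. It gave 9.87, 9.87 and 9.86 in WT, 9.74, 9.50 and 9.66 in KO, 9.65, 9.70 and 9.92 in exercised WT and 9.54, 9.71 and 9.89 in KE. KO lay below WT by 0.24 on average without overlap, while KE and KO overlapped, with a difference of 0.08 ± 0.10 (SE). The interval of KE compared with exercised WT was -0.27 to 0.18. The average of the tested Sytl2 probes gave -0.74 for KO compared with WT and 0.69 for KE compared with KO.

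Sytl3, another C2-domain member of the family, had 4 probes, of which only A_66_P121847 (chr17:6942330-6942389) was tested. It was detected on all KO arrays, on 2 of 3 exercised WT arrays and on 1 of 3 WT and 1 of 3 KE arrays. Its signals were 4.84, 4.61 and 4.31 in WT, 4.46, 4.73 and 4.66 in KO, 4.19, 5.21 and 5.03 in exercised WT and 4.67, 3.84 and 3.95 in KE. All groups overlapped. KE compared with exercised WT gave -0.66 ± 0.28 (SE, limma adjusted p = 0.742), with 2 of the 3 KE arrays and 1 exercised WT array not above background. Sytl3 probe 2 was detected on 2 arrays and reached the screening fold in KE compared with KO, at -1.11, only where the detection filter was dropped.

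Sytl4, also called granuphilin, docks dense-core granules in endocrine cells. Probe 1 (A_55_P2147101, chrX:130470950-130471009) ranged from 11.38 to 11.77 and was detected everywhere. Its groups overlapped in every comparison, and the largest estimate was -0.16 ± 0.10 in KE compared with KO (SE, adjusted p = 0.379). The interval in KE compared with exercised WT was -0.21 to 0.24, and in KO compared with WT -0.13 to 0.32. Probe 2 was detected on 3 of 12 arrays and was not tested.

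Sytl5, a further Rab27 binder of the same class, gave 5.37, 5.19 and 5.32 in WT, 5.08, 5.37 and 4.83 in KO, 5.22, 5.48 and 5.19 in exercised WT and 4.91, 4.93 and 4.85 in KE. The KE arrays lay below all WT and exercised WT arrays, and KO replicate 3 was the lowest value of all. KE compared with exercised WT gave -0.40 ± 0.13 (SE, limma adjusted p = 0.672), the smallest adjusted p of a member in that comparison. Scaling by the 75th percentile gave -0.27 and normexp, with its offset, -0.18. KE compared with KO gave -0.20 ± 0.13 and turned to 0.07 ± 0.14 with the slide as a block. The WT and exercised WT means were both 5.29, and both groups overlapped KO.

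Myrip, which links Rab27a on vesicles to myosin motors, was measured by A_52_P173703 (chr9:120383621-120383680). Its signals were 10.64, 10.74 and 10.70 in WT, 10.75, 10.86 and 10.70 in KO, 10.75, 10.70 and 10.67 in exercised WT and 10.60, 10.57 and 10.59 in KE. The KE arrays lay below every other array, and the other groups overlapped. The difference was -0.12 ± 0.06 in KE compared with exercised WT (SE, limma adjusted p = 0.755) and -0.18 ± 0.06 in KE compared with KO (adjusted p = 0.160). With the slide as a block the latter was -0.11 ± 0.07. The interaction, the change with swimming in knockout mice minus that in wild-type mice, was -0.20 ± 0.08 (adjusted p = 0.595).

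All KE and exercised WT arrays lay on slide 2. Between them, 3 of these 9 member probes, those of Sytl5, Rab27a probe 1 and Myrip, were lower in KE without overlap, and none was higher (0 of 9). Over all tested probes 11.2% were lower and 8.28% higher without overlap. The median difference of the 9 probes was -0.12, and that of all tested probes -0.01. Summed levels of 3 marker lists also lay lower in KE than in exercised WT without overlap. The hypothalamus, anterior pituitary, striatum, cortex and thalamus, oligodendrocyte and blood lists overlapped between these groups. The choroid plexus list (5 of 6 genes detected on all arrays) had log2 sums of 12.04 to 12.15 in KE and 12.29 to 12.67 in exercised WT. The platelet and mast cell list (3 of 6, with Cpa3 on 1 array) had 10.58 to 10.65 and 10.71 to 10.77, and the melanocyte list (3 of 5, with Mlana on 1 array) had 7.33 to 7.59 and 7.60 to 7.72. No defining marker of these lists was undetected on every array. Their part in the differences of the members was not tested, and in whole tissue fewer cells of a type cannot be told apart from less RNA per cell.

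Between KE and KO, 5 of 9 member probes did not overlap, 2 higher (Rab27b probes 2 and 3, the latter tested only because it was detected in the swimming groups) and 3 lower (Sytl1, Rab27a probe 1 and Myrip), where 21.5% of all probes did not. The median difference was -0.18 over the 9 probes and -0.04 over all tested probes. With the slide as a block, their median was -0.07, and 0 of 9 had an unadjusted p of at most 0.05 (background 9.04%). Leaving out KO replicate 3 removes the only KO array on the slide of the KE mice. Without it, 3 of 9 member probes had an adjusted p under 0.05 in KE compared with KO, and so had 24.3% of all tested probes. They were Rab27a probe 1 (-0.26, adjusted p = 0.0343), Rab27b probe 2 (0.42, adjusted p = 0.000776) and Myrip (-0.22, adjusted p = 0.0200).

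Between exercised WT and WT, 1 of 9 member probes did not overlap, Rab27b probe 2, which was higher in exercised WT, where 37.6% of all tested probes did not. The median difference was 0.02 for the 9 probes and -0.04 for all tested probes. Between KO and WT, the 9 member probes other than those of Sytl2 lay between -0.20 and 0.17, and their smallest adjusted p was 0.849. The smallest adjusted p in the interaction, leaving out Sytl2, was that of Myrip. The interaction value of Sytl2 probe 2 was 1.90 ± 0.46 (SE) and 2.18 ± 0.43 with the slide as a block.

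Genes that act with Rab27 were read from a list of 53, of which 51 had a tested probe and Exph5 and Myo5c did not. The screening criterion was met by 0 of 51 in each comparison, and an adjusted p under 0.05 was reached by 0 of 51 in each. At an unadjusted p of at most 0.05, 0 genes differed in KO compared with WT. In exercised WT compared with WT, 4 were higher and 10 lower, and in KE compared with KO 6 were higher and 5 lower, against shares of 26% and 21.1% of all tested probes. Between KE and exercised WT, 2 were higher and 3 lower (6.66% of all tested probes). The medians of the 51 genes were -0.02, -0.03, -0.05 and -0.00074 in these 4 comparisons, and those of all tested probes -0.01, -0.04, -0.04 and -0.01.

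**Figure D4:**
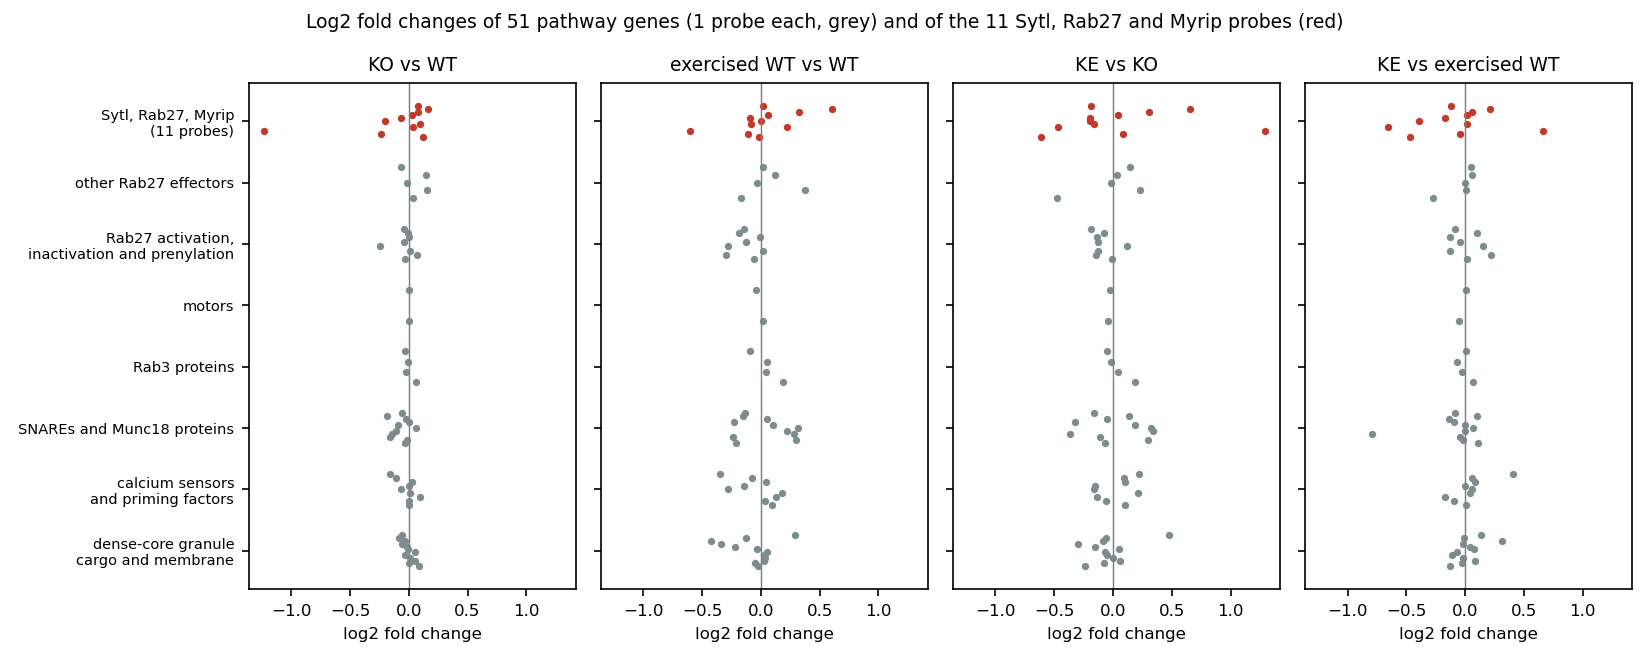
Log2 fold changes (x axes) of 51 genes of Rab27-dependent secretion in 7 groups (grey, 1 probe for each gene) and of the 11 tested Sytl, Rab27 and Myrip probes (red) in 4 comparisons. In KO vs WT the grey points reach no further than -0.24, and Sytl2 probe 2 lies at -1.23. That value was among those that chose the family, so its distance from the grey points is no test.

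Among the other Rab27 effectors the largest value was that of Mlph, melanophilin, which ties Rab27a to myosin Va, at -0.48 ± 0.19 in KE compared with KO (SE, limma adjusted p = 0.204) and -0.29 with the slide as a block. Of the regulators that load or switch off Rab27, Tbc1d10a, a GTPase-activating protein, gave -0.30 ± 0.12 in exercised WT compared with WT (adjusted p = 0.154), and Tbc1d10c -0.24 ± 0.14 in KO compared with WT (adjusted p = 0.849). Neither motor exceeded an absolute difference of 0.06 in the 4 comparisons, the largest being Myo5a in KE compared with exercised WT at -0.06 ± 0.06. Rab3a, the main Rab of synaptic vesicles, gave 0.19 ± 0.07 in KE compared with KO (adjusted p = 0.197) and 0.01 with the slide as a block.

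Of the SNAREs, which drive membrane fusion, Stx11 had the largest value of the list, -0.79 ± 0.26 in KE compared with exercised WT (SE, adjusted p = 0.672). Snap25 of the neuronal fusion complex gave 0.32 ± 0.13 in exercised WT compared with WT (adjusted p = 0.165) and -0.21 with the slide as a block. Among calcium sensors and priming factors, Unc13a, which primes synaptic vesicles, gave -0.35 ± 0.13 in exercised WT compared with WT (adjusted p = 0.150) and 0.40 ± 0.13 in KE compared with exercised WT (adjusted p = 0.672). Of dense-core granule proteins, the membrane protein Ptprn gave -0.43 ± 0.11 in exercised WT compared with WT (adjusted p = 0.0938) and -0.44 with the slide as a block. The granule peptide precursor Vgf gave 0.48 ± 0.13 in KE compared with KO (adjusted p = 0.147) and 0.17 with the block. The slide term was past an adjusted p of 0.05 for 7 of the 51 genes (background 13.3%), among them Snap25 at 0.53 and Vamp8, a SNARE of secretory granules, at -0.31.

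The genes whose signals followed each member most closely over the 12 arrays were sought by Pearson correlation, given here as a description of arrays that share slide and group. Sytl2 probe 2 was followed most by Sptbn1, a spectrin of the membrane skeleton (r = 0.955, and 0.966 over the 7 arrays of slide 2), then by Nkx2-2 (0.940 and 0.976), a homeodomain transcription factor, and Slc40a1 (0.897 and 0.855), the iron exporter ferroportin. Sytl2 probe 1 was followed by Opalin (0.938 and 0.946), Heatr3 (0.912 and 0.882) and Aspa (0.897 and 0.880). Opalin is a myelin membrane protein and Aspa the aspartoacylase of oligodendrocytes. The 6 oligodendrocyte markers were detected on all 12 arrays, with summed log2 levels of 17.24 to 17.36 in WT, 17.13 to 17.34 in KO, 17.22 to 17.30 in exercised WT and 17.07 to 17.39 in KE, which overlapped. Their part in the values of Sytl2 probe 1 was not tested.

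For Rab27a probe 1, Fem1b (r = 0.933, and 0.936 over slide 2) and Ube2g1 (0.931 and 0.861) were among the closest genes. Rab27b probe 1 had Gm4633 (0.903 and 0.795), Hdhd2 (0.896 and 0.807) and Gm11627 (0.890 and 0.756). Neither GTPase had a gene of the secretion list among its closest. Sytl1 had Ccdc64 (0.913 and 0.915), Ss18 (0.907 and 0.906) and Upp1 (0.880 and 0.860), and Sytl4 probe 1 had 4732456N10Rik (0.914 and 0.958), Rasgef1c (0.901 and 0.905) and Lrrc73 (0.895 and 0.935). Sytl5 had Tcerg1l (0.932 and 0.921), Poli (0.912 and 0.891) and Bend5 (0.909 and 0.992), and Myrip had Ak6 (0.957 and 0.929), Haus3 (0.950 and 0.980) and Pdcd5 (0.945 and 0.899). None of these names was shared between members.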

How the data were processed

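RNA of 12 hypothalamus samples was hybridized to Agilent SurePrint mouse arrays. The authors deposited scanner files (Feature Extraction 10.7.1.1), whose intensity values are background-subtracted within the array, and a table of log2 values, quantile-normalized over 12 arrays by the authors. The log2 values were used as deposited. The linear signal columns of the same table were checked against the scanner intensity, and all probes compared lay within 0.01 on the log2 scale. The quantile-normalized values themselves were not part of that check. Other tables hold the authors' fold changes and p-values and were not used, nor were 84 further columns of sample values. A probe counted as detected where the scanner software marked it well above background, and was tested where this held on all 3 arrays of at least 1 group (35230 of 56605 probes). A limma model (3.58.1, under R 4.3.3) estimated the mean of each group from all 12 arrays, with Benjamini-Hochberg adjustment over all tested probes. The fit was tested on simulated data. Alternatives were own quantile normalization, 75th percentile scaling, normexp (offset 50), other detection filters, slide and replicate blocks, the methods' t-test, fits on the compared groups, averaging by gene, and leaving out each array. Within-slide differences were added after seeing the data. Marker sums are log2 of summed linear signals. All member probes are described. Pathway genes named are those with the largest absolute difference in their group, and a few more chosen after their values were seen. Members and lists were chosen with earlier results of these data known. Probe positions come from the annotation of the array (mm9), which does not give exon or UTR. The number of arrays limits the precision. Summaries and plots were made in Python 3.11.15 with pandas 2.3.3, numpy 2.4.6 and matplotlib 3.10.9. One gene close to Rab27a in its signals is not reported here.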

Additional observations from a re-analysis of the deposited data

Results flagged for a closer look

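In Sytl2 probe 2, alone among the tested member probes, swimming and sedentary mice differed in opposite directions in the genotypes without overlap of the groups. Over all tested probes 0.843% did so. All 3 exercised WT arrays lay below all WT arrays, at the nearest 4.71 against 4.72, and all 3 KE arrays lay above all KO arrays. WT and exercised WT lay on different slides, and of the KO arrays only replicate 3 shared the slide of KE. Slide and swimming therefore cannot be fully told apart here. The change with swimming in knockout mice minus that in wild-type mice was 1.90 on the log2 scale. The difference was not tested here, because the KE compared with KO and KO compared with WT values chose the family. No KO array was well above background for this probe, and Sytl2 probe 1, detected on every array, gave 0.19 ± 0.14 (SE) for the same quantity.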

How the results depend on the processing

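In KO compared with WT the count of member probes past the screening criterion (main count 1, Sytl2 probe 2) was 0 with normexp, with detection on all 12 arrays required, and with probes averaged by gene. Over all tested probes 0.224% were past it in the main fit. In KE compared with KO (main count 1) the count was 0 with normexp, with detection on all 12 arrays, with averaging and under the slide block. It was 2 with no detection filter, which added Sytl3 probe 2. The share of all probes was 1.79% with no filter and 1.21% in the main fit. In KE compared with exercised WT (main count 0) the count was 1 with no detection filter, where the share of all probes rose from 0.253% to 1.43%. In the interaction (main count 1) it was 0 with normexp and with detection on all 12 arrays. With no filter it was 2, where the share of all probes rose from 0.593% to 1.69%. In exercised WT compared with WT (main count 0) it was 1 under the slide block, Sytl2 probe 2 (0.786% of all tested probes). Filters that demand detection on all arrays drop Sytl2 probe 2 by construction. Averaging by gene joins Sytl2 probe 2 with Sytl2 probe 1, whose differences in KO compared with WT and KE compared with KO were smaller. Normexp adds an offset of 50 to every signal, which shrinks the log2 differences of dim probes. With it, the share of all probes past the criterion in KO compared with WT was 0.00568%. For the remaining settings the cause was not tested. Screening counts that hold Sytl2 probe 2 describe values that chose the family. With an array left out, the screening counts ranged from 0 to 1 in KO compared with WT and KE compared with KO, both 0 without KO replicate 2. In exercised WT compared with WT they ranged from 0 to 1, where 1 was Rab27b probe 3 without WT replicate 1 (2.13% of all tested probes). That probe passed the detection filter only through the swimming groups, where it was high, so its count is a description and no test.

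The count of member probes with an adjusted p under 0.05 in exercised WT compared with WT (main count 0) was 1, Rab27b probe 2, by the methods' t-test (adjusted p = 0.0373, with 4.64% of all probes past it) and in the fit on these groups alone (adjusted p = 0.0268, with 8.4%). With an array left out, the count over the 9 probes other than those of Sytl2 ranged from 0 to 1 in exercised WT compared with WT. In KE compared with KO it ranged from 0 to 3. Both were highest without KO replicate 3. For pathway genes it was 1 in exercised WT compared with WT by the methods' t-test, and with an array left out it ranged from 0 to 8 in exercised WT compared with WT and from 0 to 13 in KE compared with KO, again highest without KO replicate 3, where 17.8% and 24.3% of all tested probes passed. The difference of Rab27b probe 2 in exercised WT compared with WT reversed to -0.0436 under the slide block. The deviations from the group means of 18 pairs with the same replicate number correlated between -0.191 and 0.243, with 4 pairs over 0.1. The KO deviations also hold the distance of KO replicate 3 from the other KO arrays. These values therefore cannot settle whether the replicate numbers pair the samples. With the replicate block, the screening count stayed at 1 in KO compared with WT, 1 in KE compared with KO and 0 in KE compared with exercised WT.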
